A study of Mus musculus with 16 samples.

Results

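The cholesterol genes described here are 31 genes of synthesis, uptake, transport and efflux, chosen by name, of 24421 gene symbols counted in each library. All 31 were found. They are 17 enzymes of synthesis (7 of the mevalonate pathway and 10 of the sterol pathway), 5 genes of the SREBP system that sets synthesis, 5 genes of LXR and efflux, and 4 genes of lysosomal export, storage and lipolysis. mRNA was measured in M-MDSCs and G-MDSCs, the monocytic and granulocytic myeloid-derived suppressor cells, taken by cell sorting out of the spleen, for 4 WT mice and 4 Nlrp3-/- mice, which gave 4 groups of 4 libraries. RNA was not pooled across mice, and both subsets of a mouse were sequenced. Every mouse carried a subcutaneous B16.F10 tumor, a mouse melanoma line, and no tumor-free group was sequenced. Nlrp3-/- mice lack the inflammasome sensor NLRP3 in every cell, through an EGFP cassette with an SV40 poly(A) signal fused to the start codon in exon 2. The labels give C57BL/6 as the strain throughout. In the study's methods, WT mice were bought C57BL/6J mice and the Nlrp3-/- line, of C57BL/6 background, came from another laboratory, so genotype and colony cannot be told apart. The labels give no age for the mice, and the study's methods describe mice as matched for sex and age by default. In its suppression assays the study defined M-MDSCs as CD11b high Ly6C+ Ly6G- cells and G-MDSCs as CD11b high Ly6C- Ly6G+ cells.

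Cells build cholesterol from acetyl-CoA through mevalonate, squalene and lanosterol. When membranes of the endoplasmic reticulum hold little sterol, SCAP carries the SREBP transcription factors to the Golgi for activation, and they turn on the synthesis genes, while INSIG proteins hold SCAP back. Surplus cholesterol yields oxysterols that activate the LXR receptors, which turn on efflux through ABCA1, ABCG1 and apolipoprotein E. In macrophages, lipoprotein lipid also enters through lipoprotein lipase and leaves the lysosome through NPC1 and NPC2, and SOAT1 esterifies what is stored.

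Depth ran from 2295967 to 6079866 counts per library (median 4839508.5). Levels are given as CPM, normalised read counts set to a common library size, scaled by TMM over all 16 libraries, and were compared within a gene only. Nlrp3 was at 40.6 to 88.7 CPM in WT M-MDSCs and 0.513 to 1.87 CPM in Nlrp3-/- M-MDSCs, and at 251 to 330.3 CPM against 5.50 to 13.6 CPM in G-MDSCs, counted at its 3′ end, downstream of the cassette. All 6 monocyte markers were called higher in M-MDSCs and all 6 neutrophil markers higher in G-MDSCs in both genotypes. Replicate 2 of the WT M-MDSCs stood apart, with summed neutrophil markers at 6389 CPM against 980.5 to 1287 CPM in the other WT M-MDSC libraries and proliferation markers at 521 CPM against 153 to 180.3 CPM. Red pulp macrophage markers moved with genotype in both subsets. Of 10 listed, 9 were tested and 7 were called higher without Nlrp3 in each subset. Their summed level was 152 to 170.4 CPM in WT and 289.8 to 423 CPM in Nlrp3-/- M-MDSCs, and 442 to 775 CPM in WT and 1002 to 1253 CPM in Nlrp3-/- G-MDSCs, while Mertk was at 0 counts in 4 of 4 WT M-MDSC libraries and in 3 of 4 libraries of each G-MDSC group. Other markers moved with genotype as well. Of the neutrophil markers, Mmp9 (log2 fold change 2.22, FDR = 0.0169) and Retnlg (2.44, FDR = 0.0151) were called higher without Nlrp3 in M-MDSCs and Cxcr2 (-1.26, FDR = 0.00152) lower in G-MDSCs. The rest of that list went the other way and was not called. In M-MDSCs S100a8 (-0.56), S100a9 (-0.78) and Csf3r (-0.06) were below 0. In G-MDSCs 5 of the 6 tested were above 0. The monocyte marker Csf1r was called higher in G-MDSCs (0.64, FDR = 0.0388), and the B cell marker Ms4a1 lower in both subsets (-0.99, FDR = 0.0467, and -1.58, FDR = 0.000751). The other tested B cell markers were above 0 in both subsets and not called. Of the proliferation markers, Mki67 (-2.08, FDR = 0.00889, and -2.74, FDR = 0.00230) and Top2a (-1.63, FDR = 0.0297, and -1.99, FDR = 0.00187) were called lower in both subsets. Their list summed to 153 to 521 CPM in WT and 61.2 to 136 CPM in Nlrp3-/- M-MDSCs, without overlap, and to 125 to 428 CPM and 49.8 to 182 CPM in G-MDSCs. The part of these lists in the results on the cholesterol genes was not tested. In bulk samples, fewer cells of a type and less RNA per cell cannot be told apart.

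The first question was whether loss of Nlrp3 moved the cholesterol genes. A gene is called here where its edgeR quasi-likelihood FDR, adjusted over all genes tested, is under 0.05 and its fold change is above 1.5. Of the 31 genes, 29 could be tested in M-MDSCs, where Lpl and Nr1h3 were called higher without Nlrp3 and none was called lower. In G-MDSCs 26 could be tested, Apoe and Npc2 were called higher and none lower. The background was 3.51% of all 9986 genes called higher and 7.10% called lower in M-MDSCs, and 4.70% of 9273 called higher and 11.7% called lower in G-MDSCs. No synthesis enzyme and no gene of the SREBP system was called in either subset. At an unadjusted p under 0.05 there were 8 of the 29 genes in M-MDSCs and 7 of the 26 in G-MDSCs, beside 3002 of all 9986 genes and 2997 of all 9273. DESeq2 called 4 and 2 of the cholesterol genes, beside 1424 and 1785 of all genes. The median log2 fold change of the cholesterol genes was 0.11 in M-MDSCs and 0.07 in G-MDSCs, beside 0.07 and 0.03 for all genes. Scaled by library size alone, the background shifted to 6.85% higher and 5.70% lower in M-MDSCs and 8.55% higher and 9.21% lower in G-MDSCs, and the 4 calls held.

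**Figure D1:**
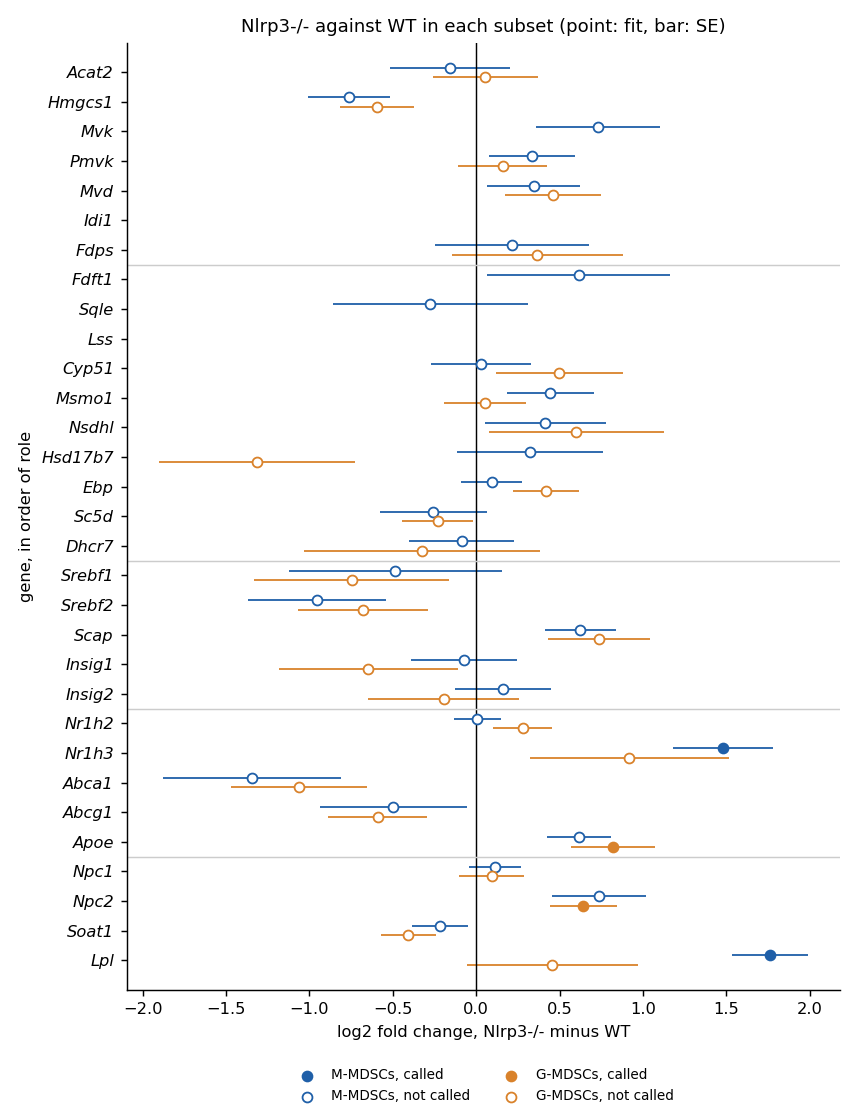
Log2 fold change of each cholesterol gene in Nlrp3-/- against WT mice (x axis), with its standard error as a bar, in M-MDSCs (blue) and G-MDSCs (orange). Filled points are the called genes, Lpl (1.76) and Nr1h3 (1.48) in M-MDSCs and Apoe (0.82) and Npc2 (0.64) in G-MDSCs, grey lines part the roles, and genes without a point were not tested.

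Lpl, which encodes lipoprotein lipase, the enzyme that splits triglycerides of circulating lipoproteins, showed the largest fold change between genotypes among the cholesterol genes tested in either subset. It lies on chromosome 8, from 68880491 to 68907448 on the plus strand of mm10. In M-MDSCs its level was 26.3, 20.2, 23.5 and 31.5 CPM in WT replicates 1 to 4 and 101, 53.5, 93.0 and 86.3 CPM in Nlrp3-/- replicates 1 to 4. The lowest Nlrp3-/- library lay above the highest WT library, and the groups did not overlap. The log2 fold change was 1.76 (SE 0.23, FDR = 0.00216), a fold of 3.39, and it stayed called in all 20 alternative analyses, the highest FDR being 0.0149. In G-MDSCs Lpl was low in both genotypes, at 8.0, 6.42, 3.15 and 1.55 CPM in WT and 4.85, 10.8, 4.34 and 7.86 CPM in Nlrp3-/- libraries. These ranges overlapped, and the log2 fold change of 0.46 (SE 0.51, FDR = 0.575) did not pass the test. The genotype effect on Lpl was 1.19 lower in G-MDSCs than in M-MDSCs on the log2 scale (SE 0.50, unadjusted p = 0.0276), and that difference did not pass adjustment over all genes (edgeR FDR = 0.992). It was the only one of 30 cholesterol genes with an unadjusted p under 0.05 for this difference, beside 4.49% of all genes. None of the 30 was called, nor by DESeq2, and the background was 0.0280% of 10696 genes, called on FDR alone.

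Nr1h3 encodes LXR alpha, a receptor for oxysterols that macrophages express. It lies on chromosome 2, from 91184061 to 91202834 on the minus strand. Its M-MDSC level was 5.19, 6.6, 3.38 and 5.82 CPM in the WT libraries and 13.4, 18.2, 9.17 and 16.7 CPM in the Nlrp3-/- libraries. All 4 Nlrp3-/- libraries lay above all 4 WT libraries, and the log2 fold change was 1.48 (SE 0.30, FDR = 0.0107). The call held without any 1 library, with FDR up to 0.0467, and was lost in a single model of all 16 libraries (FDR = 0.0547) and with the replicate block and offsets for GC content and transcript length together (1.17, FDR = 0.0737). In G-MDSCs the level was 7.67, 2.37, 0.484 and 7.0 CPM in WT and 5.77, 8.14, 7.86 and 12.6 CPM in Nlrp3-/- libraries, which overlapped, with a log2 fold change of 0.92 (SE 0.59, FDR = 0.307). Its paralog Nr1h2, LXR beta, found in most cells, was near 0 in the M-MDSC comparison (log2 fold change 0.01, SE 0.14, FDR = 0.980) and at 0.28 in G-MDSCs (SE 0.18, FDR = 0.294).

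Apoe encodes apolipoprotein E, which accepts cholesterol leaving macrophages and is a target of LXR, and lies on chromosome 7, from 19696109 to 19699188 on the minus strand. In G-MDSCs its level was 287, 93.6, 206 and 227 CPM in WT and 397, 324, 354 and 446 CPM in Nlrp3-/- libraries. The genotypes did not overlap, the log2 fold change was 0.82 (SE 0.25, FDR = 0.0369), and WT replicate 2 was lowest. In M-MDSCs Apoe was at 586, 413, 579 and 593 CPM in WT and 774, 587, 990.4 and 916 CPM in Nlrp3-/- libraries. Nlrp3-/- replicate 2 fell within the WT range, and the log2 fold change of 0.62 (SE 0.19, FDR = 0.0598) missed the threshold. DESeq2 (FDR = 0.0282) and edgeR's exact test (FDR = 0.0411) passed it, as did the fit without Nlrp3-/- replicate 2 (0.70, FDR = 0.0410). That library lay nearest the WT libraries, and leaving out such a library enlarges a fold change by construction. The G-MDSC call was lost without Nlrp3-/- replicate 1 (FDR = 0.0661), 2 (0.0620), 3 (0.0607) or 4 (0.102) and without WT replicate 3 (0.0553) or 4 (0.0565), at log2 fold changes of 0.75 to 0.89, and with offsets for GC content and transcript length the value was 0.41 (FDR = 0.296).

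Npc2 encodes the soluble protein of the lysosome lumen that hands cholesterol to NPC1 in its membrane. It lies on chromosome 12, from 84754562 to 84773152 on the minus strand. G-MDSC levels were 288, 215, 177 and 143 CPM in WT and 283, 354, 383 and 340.0 CPM in Nlrp3-/- libraries. WT replicate 1 lay just above Nlrp3-/- replicate 1, so the groups overlapped by that library, and the log2 fold change was 0.64 (SE 0.20, FDR = 0.0384). The call was lost without Nlrp3-/- replicate 2 (FDR = 0.0952), 3 (0.0979) or 4 (0.0772), without WT replicate 2 (0.0572), 3 (0.0737) or 4 (0.102), at log2 fold changes of 0.51 to 0.68, and with the GC and length offsets (0.60, FDR = 0.0737). In M-MDSCs the level was 1596, 700.4, 848 and 951 CPM in WT and 1009.5, 1565, 2372 and 1812 CPM in Nlrp3-/- libraries. WT replicate 1 lay among the Nlrp3-/- libraries and the log2 fold change was 0.74 (SE 0.28, FDR = 0.105). Without that library it was 1.05 (FDR = 0.0302), larger by construction, because the highest WT library was left out. Npc1, the membrane partner, was at 0.11 (SE 0.16, FDR = 0.665) in M-MDSCs and 0.09 (SE 0.19, FDR = 0.780) in G-MDSCs. The red pulp macrophage markers rose with Lpl, Nr1h3, Apoe and Npc2, for example C1qa (log2 fold change 2.44, FDR = 9.42e-05, in M-MDSCs and 1.58, FDR = 0.00755, in G-MDSCs), and their part in these 4 results was not tested.

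**Figure D2:**
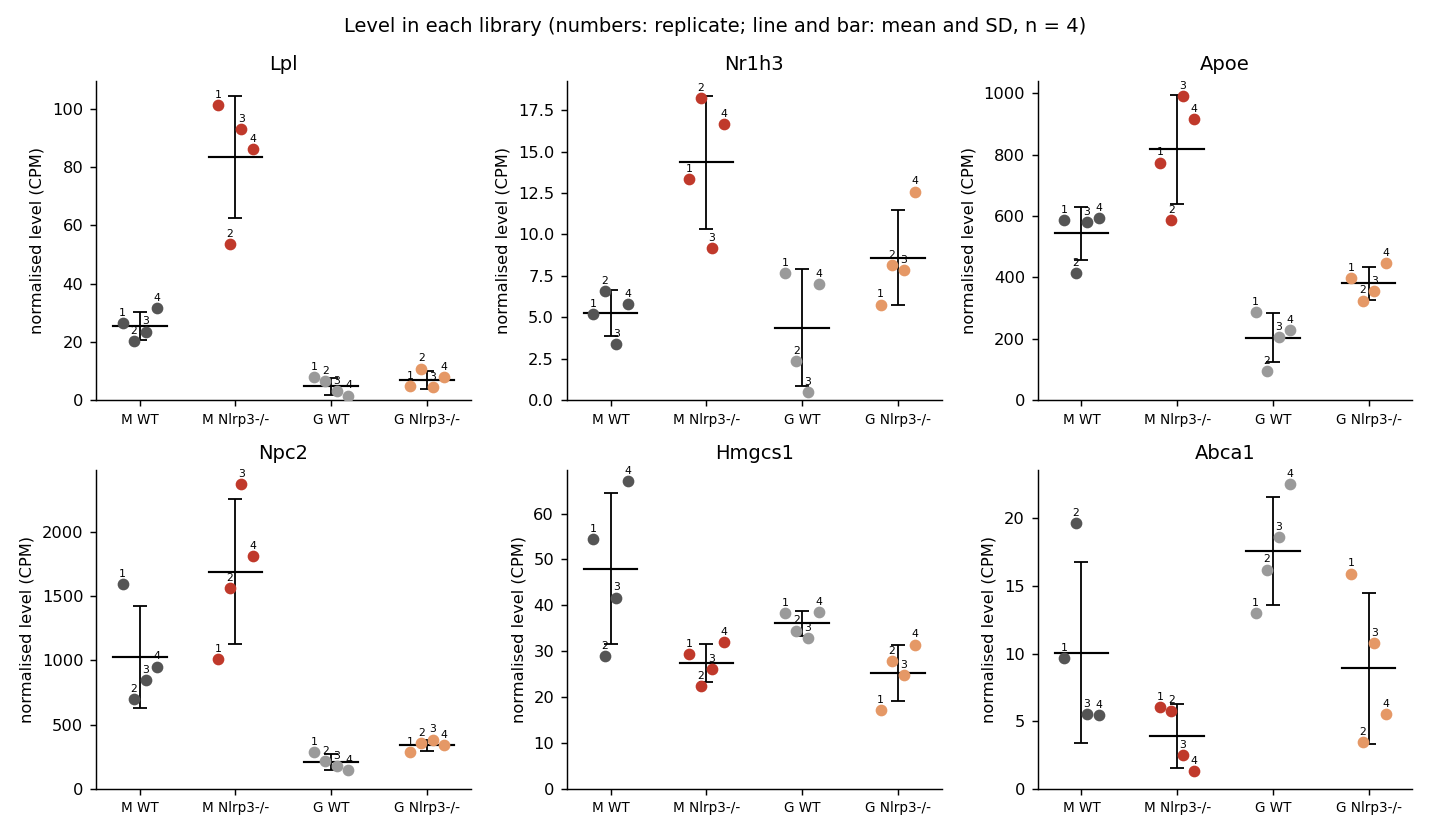
CPM (y axis, from 0) of 6 genes in the 16 libraries, by subset and genotype (x axis), with replicate numbers at the points and lines and bars for the mean and SD of 4 libraries. Lpl and Nr1h3 separate the genotypes in M-MDSCs and Apoe in G-MDSCs, Npc2 overlaps by 1 WT library in G-MDSCs, and Hmgcs1 and Abca1, which were not called, lie mostly lower without Nlrp3.

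Of the ABC transporters, Abca1 and Abcg1 had log2 fold changes below 0 without Nlrp3, in values that did not pass the test. Abca7, from the wider pathway list, was at 0.45 (FDR = 0.0504) in M-MDSCs and 0.49 (FDR = 0.0454) in G-MDSCs, without overlap of the genotypes, and was not called, its G-MDSC fold being under 1.5. Abca1, which loads cholesterol onto apolipoprotein A-I, was at 9.65, 19.6, 5.52 and 5.47 CPM in WT M-MDSCs and 6.04, 5.79, 2.50 and 1.28 CPM in Nlrp3-/- M-MDSCs (log2 fold change -1.35, SE 0.53, FDR = 0.116). The highest of these libraries was WT replicate 2, the one with the neutrophil markers, and the genotypes overlapped. In G-MDSCs Abca1 was at 13, 16.2, 18.6 and 22.5 CPM in WT and 15.9, 3.45, 10.8 and 5.50 CPM in Nlrp3-/- libraries (log2 fold change -1.06, SE 0.41, FDR = 0.0855). Only Nlrp3-/- replicate 1 reached the WT range there. Without it the value was -1.49 (FDR = 0.0248), larger in size by construction, because the library nearest WT was left out. Abcg1, which exports to HDL, was at -0.50 (SE 0.44, FDR = 0.477) in M-MDSCs and -0.59 (SE 0.30, FDR = 0.185) in G-MDSCs. In G-MDSCs it was -0.82 (FDR = 0.0361) without WT replicate 1, the lowest WT library, whose removal enlarges the value by construction. Nlrp3-/- replicate 1 of the M-MDSCs, at 36.5 CPM, was above the other 3 Nlrp3-/- libraries (7.92 to 16.9 CPM). Without that library 6 cholesterol genes were called in M-MDSCs, Lpl and Nr1h3 with Npc2 (0.89, FDR = 0.0359) higher, and Abcg1 (-1.14, FDR = 0.0419), Srebf2 (-1.27, FDR = 0.0494) and Hmgcs1 (-0.84, FDR = 0.0448) lower. The background rose too without it, to 6.37% called higher and 11.2% called lower of 10157 genes.

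Soat1, the enzyme that esterifies cholesterol for storage in lipid droplets, completed the genes of transport and storage. It was at -0.22 (SE 0.17, FDR = 0.402) in M-MDSCs and -0.41 (SE 0.16, FDR = 0.0998) in G-MDSCs.

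In the SREBP system, Scap and Srebf2 had fold changes of opposite sign, and neither was called. Scap, whose product escorts SREBPs to the Golgi, was at 13.5, 17.1, 25.3 and 17.8 CPM in WT M-MDSCs and 28.2, 26.0, 27.1 and 30.3 CPM in Nlrp3-/- M-MDSCs. The genotypes did not overlap, yet the log2 fold change of 0.62 (SE 0.21, FDR = 0.0754) missed the threshold. It passed without WT replicate 3 (0.82, FDR = 0.0436), the highest WT library, whose removal enlarges the value by construction. In G-MDSCs Scap was at 12, 9.80, 18.6 and 17.1 CPM in WT and 28.6, 31.8, 27.1 and 14.1 CPM in Nlrp3-/- libraries (log2 fold change 0.74, SE 0.30, FDR = 0.111). Nlrp3-/- replicate 4 lay inside the WT range, and the value without it, 0.94 (FDR = 0.0452), is larger by construction too. Srebf2, the SREBP that mainly drives synthesis of cholesterol, was at -0.95 (SE 0.41, FDR = 0.145) in M-MDSCs and -0.68 (SE 0.39, FDR = 0.243) in G-MDSCs. In WT M-MDSCs it was 52.0 CPM in replicate 4 against 16.3 to 21.5 CPM in the others. Srebf1, whose SREBP-1c form drives fatty acid synthesis, was at -0.48 (SE 0.64, FDR = 0.651) and -0.75 (SE 0.58, FDR = 0.405). The retention factors Insig1 and Insig2 were at -0.07 and 0.16 in M-MDSCs and at -0.65 and -0.19 in G-MDSCs, with FDR from 0.436 to 0.909.

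No synthesis enzyme was called, and their summed levels overlapped between the genotypes. The sum was 205.6 to 393 CPM in WT and 287 to 397 CPM in Nlrp3-/- M-MDSCs, and 245 to 330.3 CPM in WT and 263 to 347 CPM in Nlrp3-/- G-MDSCs. The median log2 fold change was 0.28 over the 6 tested mevalonate genes and 0.09 over the 9 tested sterol genes in M-MDSCs, and 0.16 over 5 and 0.05 over 7 in G-MDSCs. Idi1, which makes the allylic isoprene unit, and Lss, which closes the lanosterol ring, were too low to test in both subsets, at up to 1.02 and 3.45 CPM, and Mvk, Fdft1 and Sqle were too low in G-MDSCs. Idi1 had 0 counts in 10 of 16 libraries. The 3 counts that a count of 0 allows corresponded to 0.493 to 1.31 CPM over all libraries, a limit for counting error only. Unlike the levels, that limit was set by library size without TMM scaling. WT replicate 2 of the M-MDSCs was the lowest of its group in 13 of the 17 enzymes and the highest in 0. Acat2 shares much of its sequence with its neighbour Acat3, so its counts are uncertain.

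**Figure D3:**
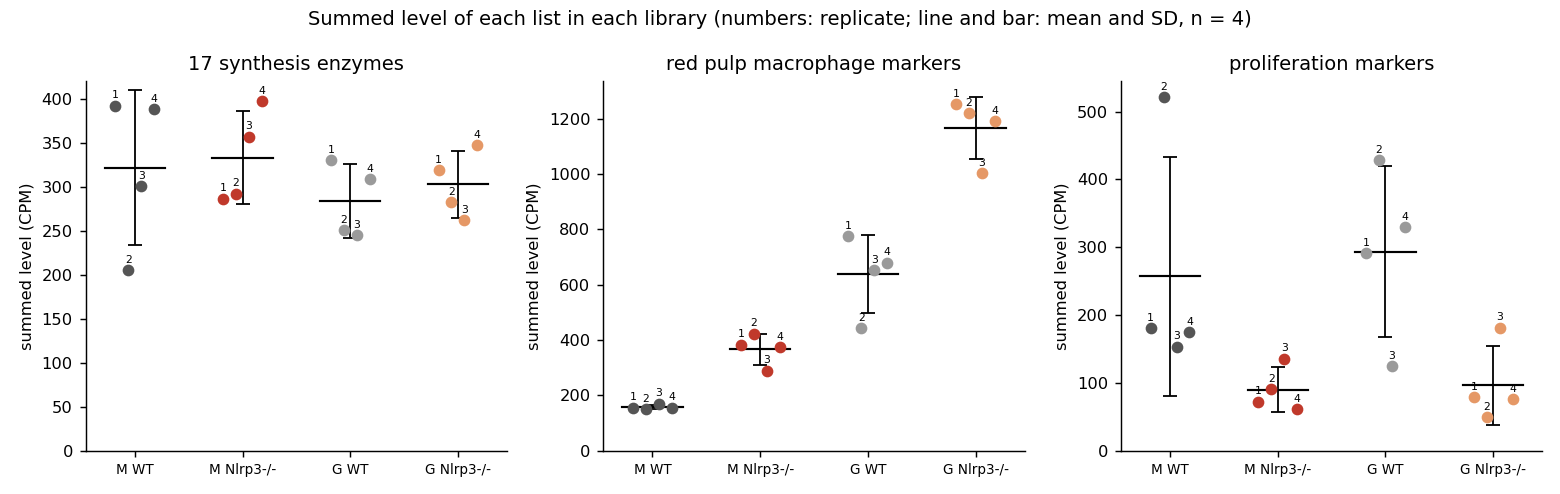
Summed CPM (y axes, from 0) of the 17 synthesis enzymes, of the red pulp macrophage markers and of the proliferation markers in each library, by subset and genotype (x axis), with lines and bars for the mean and SD of 4 libraries. Synthesis enzymes overlap between genotypes (205.6 to 393 CPM in WT and 287 to 397 CPM in Nlrp3-/- M-MDSCs), macrophage markers do not, and M-MDSC WT replicate 2 is lowest in the first panel and highest in the last.

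Hmgcs1 encodes the enzyme that makes HMG-CoA and is a classic SREBP target. Of the tested synthesis enzymes it had the lowest log2 fold change in M-MDSCs, but not in G-MDSCs, where Hsd17b7 (-1.32) was lower. In M-MDSCs Hmgcs1 was at 54.4, 28.9, 41.7 and 67.0 CPM in WT and 29.4, 22.3, 26.1 and 31.9 CPM in Nlrp3-/- libraries. WT replicate 2 lay within the Nlrp3-/- range, and the log2 fold change was -0.76 (SE 0.25, FDR = 0.0648). DESeq2 (-0.79, FDR = 0.0249), the exact test (-0.77, FDR = 0.0357) and the fit without WT replicate 2 (-0.94, FDR = 0.0374) passed the threshold. That fit left out the lowest WT library, which enlarges the value by construction. In G-MDSCs the level was 38.3, 34.5, 32.9 and 38.5 CPM in WT and 17.1, 27.9, 24.8 and 31.4 CPM in Nlrp3-/- libraries. These did not overlap, and the log2 fold change of -0.60 (SE 0.22, FDR = 0.0768) missed the threshold. Mvd in the mevalonate pathway and Ebp in the sterol pathway are given in every library because their mean CPM over all 16 libraries was the highest in their role, an order that did not hold within G-MDSCs. Mvd, mevalonate diphosphate decarboxylase, was at 82.0, 33.4, 50.2 and 58.2 CPM in WT and 42.2, 74.2, 98.0 and 66.8 CPM in Nlrp3-/- M-MDSCs, and at 17.7, 11.5, 11.6 and 10.1 CPM in WT and 16.6, 24.9, 18.8 and 13.6 CPM in Nlrp3-/- G-MDSCs. The genotypes overlapped in both subsets (log2 fold changes 0.35, SE 0.28, FDR = 0.426, and 0.46, SE 0.29, FDR = 0.289), while no G-MDSC library reached any M-MDSC library. Ebp, the sterol isomerase, was at 106, 64.8, 93.8 and 105 CPM in WT and 88.2, 82.7, 103 and 112 CPM in Nlrp3-/- M-MDSCs, and at 67.7, 46.6, 40.9 and 58.7 CPM in WT and 90.7, 71.7, 62.9 and 77.3 CPM in Nlrp3-/- G-MDSCs. Its genotypes overlapped too (0.09, SE 0.18, FDR = 0.775, and 0.42, SE 0.20, FDR = 0.160). Over the other tested enzymes the log2 fold changes ran from -0.28 (Sqle) to 0.73 (Mvk) in M-MDSCs and from -1.32 (Hsd17b7) to 0.60 (Nsdhl) in G-MDSCs, with FDR of 0.137 or more.

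The second question was how the subsets differ in these genes. G-MDSCs and M-MDSCs of the same mice were compared within each genotype, with 29 of the 31 genes tested in both. In WT mice 3 were called higher and 10 lower in G-MDSCs, beside 26.3% higher and 27.1% lower of 9739 genes. In Nlrp3-/- mice 3 were called higher and 11 lower, beside 23.7% higher and 27.4% lower of 10071 genes. So large a background makes the counts no result about the cholesterol genes as a set, and they are described singly. Called in both genotypes, in the same direction, were 9 genes, 69.2% of the WT calls and 64.3% of the Nlrp3-/- calls. The like share over all genes was not computed, so this count is no result about the cholesterol genes as a set. Sc5d and Abcg1 were higher, and Mvd, Fdps, Nsdhl, Dhcr7, Apoe, Npc2 and Lpl were lower in G-MDSCs. The median log2 fold change was -0.40 in WT and -0.62 in Nlrp3-/- mice, beside -0.05 and -0.12 for all genes. The subsets did not overlap in 13 of the 29 genes in WT and 9 in Nlrp3-/- mice, beside 51.9% and 50.2% of all genes. TMM factors were above 1 in every M-MDSC library and below 1 in every G-MDSC library, and with library size alone the medians of all genes were -0.79 and -0.83 and 1 cholesterol gene (Sc5d) was called higher and 19 lower in each genotype.

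**Figure D4:**
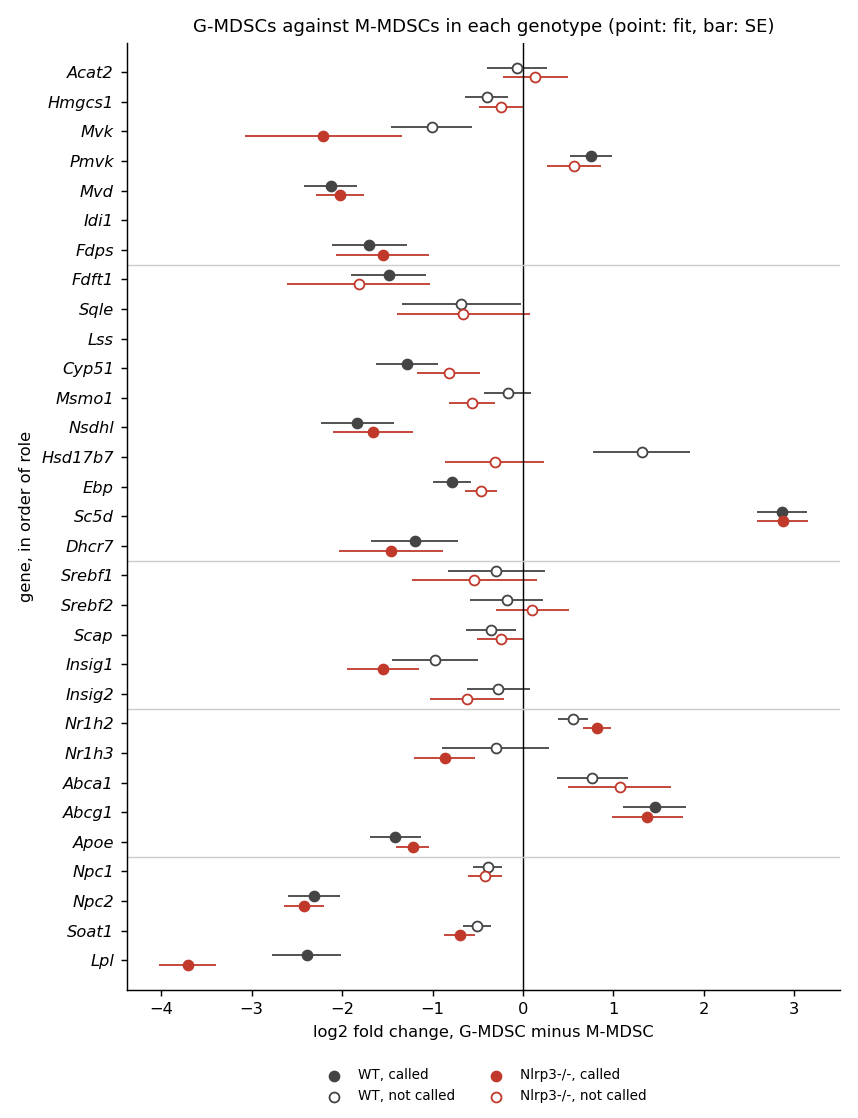
Log2 fold change of each cholesterol gene in G-MDSCs against M-MDSCs (x axis), with its standard error as a bar, in WT (grey) and Nlrp3-/- mice (red). Filled points are called, and Sc5d at 2.87 in both genotypes stands opposite Mvd (-2.13 and -2.03), Npc2 (-2.31 and -2.42) and Lpl (-2.39 and -3.71).

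Sc5d, the sterol desaturase that acts just before DHCR7, was the enzyme that set G-MDSCs above M-MDSCs. It was at 16.9, 9.12, 10.5 and 19.8 CPM in WT M-MDSCs and 123, 72.6, 88.8 and 119 CPM in WT G-MDSCs. It was at 10.8, 9.02, 8.13 and 17.3 CPM in Nlrp3-/- M-MDSCs and 108, 84.3, 62.5 and 110.3 CPM in Nlrp3-/- G-MDSCs. Every G-MDSC library lay above every M-MDSC library, with log2 fold changes of 2.87 (SE 0.28, FDR = 4.04e-06) and 2.87 (SE 0.28, FDR = 1.09e-06). The other called enzymes were lower in G-MDSCs, apart from Pmvk (0.75, SE 0.23, FDR = 0.0155) in WT mice, which was -0.0055 with library size alone and lost its call without M-MDSC replicate 2 or 3 (FDR up to 0.0745). Mvd was lower by log2 fold changes of -2.13 (SE 0.29, FDR = 6.11e-05) in WT and -2.03 (SE 0.26, FDR = 1.89e-05) in Nlrp3-/- mice. Nsdhl, which takes a carboxyl group off the sterol ring, was lower too (-1.84, SE 0.40, FDR = 0.00210, and -1.66, SE 0.44, FDR = 0.00566), at 1.33 to 2.70 CPM against 4.07 to 10.2 CPM in WT and 2.08 to 4.76 CPM against 5.84 to 15.6 CPM in Nlrp3-/- mice, without overlap. Fdps, which makes farnesyl diphosphate, was at -1.70 (FDR = 0.00418) and -1.55 (FDR = 0.0202), and the Nlrp3-/- value was no longer called without replicate 4 of either subset, at its highest FDR of 0.104. Dhcr7, which completes cholesterol, was at -1.20 (FDR = 0.0483) and -1.46 (FDR = 0.0457), and held only when the library left out was G-MDSC replicate 1 or M-MDSC replicate 2 in WT and G-MDSC replicate 2 or 3 in Nlrp3-/- mice (FDR otherwise up to 0.109 and 0.118). Without a term for the mouse, Fdft1 (-1.49), Cyp51 (-1.28) and Ebp (-0.79) were called lower in WT mice and not in Nlrp3-/- mice, while the fit with the mouse as a block called Fdft1 (-1.91, FDR = 0.0172) and Cyp51 (-0.87, FDR = 0.00614) lower in Nlrp3-/- mice too. Mvk (-2.21) was called lower in Nlrp3-/- mice and not in WT mice, and its call held only when the library left out was G-MDSC replicate 2 or M-MDSC replicate 1 (FDR otherwise up to 0.11). Whether these differ between genotypes is the same test as the difference of genotype effects given for Lpl, which called 0 of 30 genes.

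Promoter sequences of 4 synthesis genes, 3 called between the subsets and Hmgcs1, which was called in no comparison, are shown to let their letters be compared. They are RefSeq windows of 300 bases on GRCm38.p6, the assembly of mm10, most of each window lying before a gene start, and 25 of the 31 genes had 1 or more, 36 windows in all. Fdps, Fdft1, Sqle, Abcg1, Npc1 and Lpl had none. The Hmgcs1 window is chr13:119690101-119690400, plus strand. Mvd (chr8:122443373-122443672, minus strand) and Nsdhl (chrX:72918271-72918570, plus strand) were lower and Sc5d (chr9:42264251-42264550, minus strand) higher in G-MDSCs. Capitals mark, on either strand, the sterol regulatory element TCACNCCAC, the CCAAT box CCAAT and the E-box CACGTG, none of which overlapped another here.
Hmgcs1: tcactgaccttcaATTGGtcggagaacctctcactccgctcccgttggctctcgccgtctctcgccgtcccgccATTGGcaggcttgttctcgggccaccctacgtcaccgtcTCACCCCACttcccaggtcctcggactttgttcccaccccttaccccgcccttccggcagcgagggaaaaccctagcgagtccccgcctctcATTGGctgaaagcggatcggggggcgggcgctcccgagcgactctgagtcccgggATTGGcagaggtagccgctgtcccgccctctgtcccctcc
Mvd: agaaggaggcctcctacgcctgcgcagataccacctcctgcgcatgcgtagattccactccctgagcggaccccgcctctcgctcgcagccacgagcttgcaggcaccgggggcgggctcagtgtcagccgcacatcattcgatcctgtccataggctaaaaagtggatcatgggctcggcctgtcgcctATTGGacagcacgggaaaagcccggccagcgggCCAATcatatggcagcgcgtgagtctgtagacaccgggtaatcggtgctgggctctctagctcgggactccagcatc
Nsdhl: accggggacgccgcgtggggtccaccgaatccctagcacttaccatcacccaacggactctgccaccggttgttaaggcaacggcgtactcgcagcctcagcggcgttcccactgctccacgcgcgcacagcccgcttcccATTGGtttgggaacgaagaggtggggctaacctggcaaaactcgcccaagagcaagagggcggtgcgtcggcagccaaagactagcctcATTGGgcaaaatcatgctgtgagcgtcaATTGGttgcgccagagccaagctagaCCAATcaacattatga
Sc5d: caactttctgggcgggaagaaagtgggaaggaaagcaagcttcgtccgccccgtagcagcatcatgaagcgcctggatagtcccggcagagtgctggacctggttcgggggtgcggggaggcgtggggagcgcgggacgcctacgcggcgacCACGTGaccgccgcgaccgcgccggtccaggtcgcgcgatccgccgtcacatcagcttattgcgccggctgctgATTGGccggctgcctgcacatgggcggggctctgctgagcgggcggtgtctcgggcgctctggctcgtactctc
The synthesis enzymes had 17 windows, which came from 14 genes, so a window is not an enzyme here. The sterol regulatory element was in 1 of the 17 windows of synthesis enzymes, that of Hmgcs1, and in 1.24% of all 32851 windows. CCAAT was in 13 of the 17, including all 4 shown, and in 37.4% of all windows. The E-box was in 3 of the 17, Sc5d among them, and in 7.15% of all windows, and the GC box GGGCGG was in 14 of the 17 and 35.7% of all. These are matches of letters within the windows and not measured sites.

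Among the genes of transport, Lpl and Npc2 showed the widest gaps between subsets. Lpl was lower in G-MDSCs by log2 fold changes of -2.39 (SE 0.38, FDR = 0.000209) in WT and -3.71 (SE 0.31, FDR = 2.58e-07) in Nlrp3-/- mice. Npc2 was at -2.31 (SE 0.29, FDR = 3.19e-05) and -2.42 (SE 0.22, FDR = 5.69e-07). Apoe was at -1.41 (SE 0.28, FDR = 0.00108) and -1.22 (SE 0.18, FDR = 7.68e-05), and for all 3 genes no G-MDSC library reached an M-MDSC library of its genotype. Abcg1 went the other way (1.46, SE 0.35, FDR = 0.00371, and 1.37, SE 0.39, FDR = 0.00888). It was at 16.5, 44.9, 24.2 and 22.2 CPM in WT M-MDSCs against 37.0, 65.2, 107 and 89.4 CPM in WT G-MDSCs, and at 36.5, 16.9, 7.92 and 12.4 CPM against 71.8, 52.0, 52.6 and 34.3 CPM in Nlrp3-/- mice. The subsets overlapped by 1 M-MDSC library in each genotype, WT replicate 2 and Nlrp3-/- replicate 1. Abca1 had values of like sign (0.77, FDR = 0.113, and 1.07, FDR = 0.127) that did not pass. In WT mice Abca1 was called with the mouse as a block (0.91, FDR = 0.0453). It was also called without M-MDSC replicate 2 (1.27, FDR = 0.00672), the highest WT M-MDSC library, whose removal enlarges the value by construction. In Nlrp3-/- mice Nr1h2 was called higher (0.82, SE 0.16, FDR = 0.000588), and Insig1 (-1.55, SE 0.39, FDR = 0.00436), Soat1 (-0.70, SE 0.17, FDR = 0.00306) and Nr1h3 (-0.87, SE 0.33, FDR = 0.0402) lower, the last of which held only when the library left out was G-MDSC replicate 4 or M-MDSC replicate 3 (FDR otherwise up to 0.124). With the mouse as a block Insig1 was called lower in WT mice too (-1.17, FDR = 0.0162).

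The wider pathway was read from a list of 40 further genes of synthesis, uptake, lysosomal hydrolysis, sterol transfer and lipogenesis. In M-MDSCs 36 were tested, and 0 were called higher and 2 lower without Nlrp3, beside 3.51% higher and 7.10% lower of all genes. They were Nceh1 (log2 fold change -1.20, SE 0.22, FDR = 0.00773), which hydrolyses stored cholesterol ester, and Ggps1 (-0.74, SE 0.22, FDR = 0.0467), which makes the geranylgeranyl group. In G-MDSCs 29 were tested, and 1 was called higher and 4 lower, beside 4.70% and 11.7% of all genes. The higher gene was Lipa, the lysosomal acid lipase that frees cholesterol from lipoprotein esters (0.72, SE 0.16, FDR = 0.00848), at 71.0, 77.0, 96.8 and 70.0 CPM in WT and 135, 148, 147 and 121 CPM in Nlrp3-/- libraries. These did not overlap, and Lipa was at 0.38 (FDR = 0.250) in M-MDSCs. The lower genes were Nceh1 (-1.18, FDR = 0.0235), Mylip (-1.16, FDR = 0.0213), Osbp (-1.07, FDR = 0.0262) and Ncor1 (-0.61, FDR = 0.0164). Mylip encodes the LXR-induced ligase that degrades the LDL receptor, Osbp a sterol transfer protein of the endoplasmic reticulum and Golgi, and Ncor1 a corepressor of nuclear receptors. The median log2 fold change of the list was 0.04 in M-MDSCs and 0.12 in G-MDSCs, beside 0.07 and 0.03 for all genes. Between subsets, 8 of the 34 tested were called higher and 15 lower in G-MDSCs of WT mice, beside 26.3% and 27.1% of all genes, and 8 and 12 of 36 in Nlrp3-/- mice, beside 23.7% and 27.4%.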

How the data were processed

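Whole-number read counts per gene symbol were deposited for 16 QuantSeq 3′ libraries. Per the labels and the study's methods, the authors aligned reads with HISAT2 2.1.0 to mm10 and counted them by strand with htseq-count, and edgeR 3.14.0 is named in the submitters' processing notes. Reads carried no molecular identifiers, so counting limits leave out PCR error. The number of amplification cycles is not tied to libraries in the labels.

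Counts were analysed as deposited in R 4.3.3 with edgeR 4.0.16 (filterByExpr, TMM, quasi-likelihood test) on the 8 libraries of each comparison, and the difference of genotype effects in a model of 16. Fold changes come from each comparison's own fit, CPM from 1 TMM scale over 16 libraries. A call needs FDR under 0.05 and fold above 1.5, and the difference of effects FDR alone. The steps were tested on simulated data. Gene positions are from GENCODE on mm10. Each replicate is a mouse.

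The 31 genes, the marker lists and the list of 40 were chosen with earlier results of these data known. The values of 1 further gene of the pathway are not reported here. Values in every library are given for genes called between genotypes, the gene of highest mean CPM in each role (Mvd, Ebp, Scap, Apoe, Npc2), and, chosen after values were seen, Hmgcs1, Sc5d, Abca1, Abcg1 and Lipa. The promoters shown were also chosen after values were seen. For uncalled genes, fits without 1 library are given mainly where that library lay nearest the other group, and the rest are not given. Same-numbered M-MDSC and G-MDSC libraries come from 1 mouse, as the descriptions show, and their deviations correlated at 0.098 to 0.447 in WT and 0.0072 to 0.396 in Nlrp3-/- mice. Alternatives were DESeq2 1.42.0, the exact test of edgeR, scaling by DESeq2's factors, by upper quartiles or by library size only, other count filters, no fold minimum, 1 model of 16 libraries, the replicate number as a block, GC and length offsets from splines, and leaving out each library.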

Additional observations from a re-analysis of the deposited data

Results flagged for a closer look

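Groups of 4 libraries were searched for a library that stood off from the other 3 by more than Dixon's critical value for the gap over the range. Of 124 groups of cholesterol genes and 40 of summed lists, 15 were marked, and chance marks about 1 group in 20. Some lists sum these same cholesterol genes, so the groups are not independent and the 15 cannot be weighed against that rate. In M-MDSC WT replicate 2 there were 5 of the marked groups. Apoe was lowest there at 413 CPM against 579 to 593 CPM, as was the LXR and efflux list at 539 CPM against 666 to 678 CPM. The neutrophil markers (6389 CPM against 980.5 to 1287 CPM), the immature granulocyte markers (2425 CPM against 386 to 467 CPM) and the proliferation markers (521 CPM against 153 to 180.3 CPM) were highest there. In M-MDSC WT replicate 4, Srebf2 was highest at 52.0 CPM against 16.3 to 21.5 CPM, with the SREBP list at 109.8 CPM against 75.3 to 80.1 CPM. In G-MDSC WT replicate 2, Insig1 was highest at 28 CPM against 5.33 to 7.38 CPM, and the LXR and efflux list lowest at 260.2 CPM against 408 to 432 CPM. Among Nlrp3-/- G-MDSCs, Acat2 was highest in replicate 2 (11.1 CPM against 8.08 to 8.38 CPM), Msmo1 in replicate 4 (40.6 CPM against 22.9 to 25.4 CPM) and Insig2 in replicate 1 (10.4 CPM against 3.93 to 4.97 CPM). The other 3 were near the floor of detection. Idi1 was at 0.712 CPM in M-MDSC WT replicate 3 and 0.389 CPM in G-MDSC WT replicate 4, with 0 in the other libraries of each group, and Lss was at 0 CPM in G-MDSC WT replicate 1 against 0.676 to 0.777 CPM. No cholesterol gene differed in its genotype effect between subsets by the edgeR interaction test at FDR under 0.05 (1 of 30 at an unadjusted p under 0.05).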

How the results depend on the processing

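Over 20 alternatives in each genotype comparison, Lpl stayed called in M-MDSCs (log2 fold change 1.60 to 2.03), Nr1h3 lost its call in 2 (1.17 to 1.65), and in G-MDSCs Apoe lost its call in 8 (0.41 to 1.02) and Npc2 in 10 (0.51 to 0.83). Against 2 genes called in M-MDSCs, beside 1060 of all genes, DESeq2 called 4 (beside 1424) and the exact test 4 (beside 1324). The replicate block with GC and length offsets called 1 (beside 48), and leaving out 1 library gave 2 to 6 (beside 450 to 1783). Against 2 in G-MDSCs, beside 1522 of all genes, the replicate block called 1 (beside 985), the offsets 0 (beside 965), and the block with offsets 0 (beside 396). Leaving out 1 library gave 0 to 3 (beside 1104 to 1544). Calls over all genes moved with the setting as well. Same-numbered WT and Nlrp3-/- mice share a number alone (deviations correlated at -0.488 to 0.0251 in M-MDSCs and -0.329 to -0.0536 in G-MDSCs, none highest with its own number). In the subset comparisons, where numbers pair libraries of 1 mouse, the replicate block called 15 in place of 13 genes in WT mice, adding Abca1 (0.91, FDR = 0.0453) and Insig1 (-1.17, FDR = 0.0162), and 16 in place of 14 in Nlrp3-/- mice, adding Cyp51 (-0.87, FDR = 0.00614) and Fdft1 (-1.91, FDR = 0.0172), and it changed no other call. Over all genes that block called 5447 in place of 5193 in WT mice and 5397 in place of 5141 in Nlrp3-/- mice. Library size alone called 20 in WT mice, beside 6227 of all 9739 genes, and took Pmvk from 0.75 to -0.0055. The difference of genotype effects called 0 under each alternative run. Of 557 values of single genes under alternatives, 497 kept direction and call, 59 lost the call and 1 reversed. The causes were not tested. Idi1 and Lss were too low to test between genotypes at this depth.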
